A study of Mus musculus with 6 samples.

Results

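Npr3, Sftpd, Colec10, Pla1a and Cpq are 5 genes for secreted proteins and a receptor whose counts were lower in every Crebl2 siRNA library than in any Luc siRNA library of mouse hepatoma cells. They were chosen by their measured values, for large or highly even falls in these same libraries, so the falls themselves are described here and carry no p-value. They are 5 of 38828 gene features in the count files, and all 5 were among the 11616 that passed the filter on low counts. The cells were Hepa1-6, a hepatoma line of the mouse, and their total RNA gave 3 libraries of cells given siRNA against Crebl2 and 3 of cells given siRNA against Renilla Luciferase (Luc), an enzyme that mouse cells lack. Both groups had 3 days of knockdown with Lipofectamine RNAiMAX, in DMEM with 4.5 g/L glucose and 10% FBS. The question of the study is what Crebl2, a small basic leucine zipper protein, does in the metabolism of liver and muscle cells. A tumour line is a limited model of hepatocytes, and the labels do not say that the libraries of a group were grown separately. The p-values therefore reflect how far these libraries spread, which may be technical variation.

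Npr3 is the natriuretic peptide clearance receptor. It binds the same peptide hormones as the guanylyl cyclase receptors Npr1 and Npr2, has no cyclase domain of its own, and removes the hormones from the extracellular fluid. Sftpd (surfactant protein D, best known from the lung) and Colec10 (collectin liver 1) are collectins, soluble proteins with a collagen-like stalk and a lectin head that bind sugars on microbes. Some collectins carry MASP proteases and start the lectin pathway of complement, and Colec10 forms mixed complexes with Colec11. Pla1a is a secreted phospholipase of the lipase family that cuts phosphatidylserine to lysophosphatidylserine. Cpq is a peptidase of the M28 family found in plasma and lysosomes, which splits dipeptides.

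The libraries held 27082572 to 27710914 counts with Crebl2 siRNA and 27385328 to 29158489 counts with Luc siRNA. Crebl2 itself had 813, 826 and 896 counts in the Crebl2 siRNA libraries, against 3248, 3162 and 3041 in the Luc siRNA libraries. That is 30.4 ± 1.69 CPM (counts as a share of the TMM-scaled library total) against 113 ± 0.858 CPM (SD, n = 3 each), a log2 fold change of -1.90 with an adjusted p of 2.83e-12 by edgeR's quasi-likelihood test. Crebl2 siRNA replicate 2 stood apart in the share of counts from mitochondrial genes, with 0.859%, against 2.09% to 2.52% in the other 5 libraries, so the folds of the 5 genes are also given without it. Of 10 hepatocyte markers 8 had counts, and their summed level was 1010 to 1090 CPM with Crebl2 siRNA and 1040 to 1130 CPM with Luc siRNA. That sum is mostly Alb and Afp. Of the 5 markers that could be tested, Fgb (17 CPM with Crebl2 siRNA and 45.1 CPM with Luc siRNA, a log2 fold change of -1.41) and Trf (-0.42) were lower, Afp (0.36) was higher, and Alb (-0.11) and Apoa1 (-0.05) did not pass (edgeR). Serpina1a and Hnf4a were at 0, and the 2 deposited Hnf4a transcripts have 6 bases in all that no other deposited transcript covers. Those of Serpina1a have 221 such bases.

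Npr3 lies on the minus strand of chromosome 15 (chr15:11839896-11905639, GRCm38), and its counts fell on 1 protein-coding transcript of 8 exons that encodes 536 residues. The Crebl2 siRNA libraries held 13, 14 and 9 Npr3 counts, and the Luc siRNA libraries held 102, 78 and 85. The groups did not overlap, and the lowest Luc siRNA library was 5.54-fold above the highest Crebl2 siRNA library in CPM. The mean was 0.431 ± 0.0946 CPM with Crebl2 siRNA and 3.17 ± 0.392 CPM with Luc siRNA (SD, n = 3 each), a log2 fold change of -2.86 (SE 0.231), or 7.28-fold lower. Summed over each group, the counts stood at 13.6% of the Luc siRNA level after scaling (95% exact binomial interval 9.32% to 19.3%, for counting error only). By the size of the fall Npr3 ranked 5 among all tested genes. The fall rests on 36 reads in the Crebl2 siRNA group, where counting alone gives a coefficient of variation of 28.9% per library and the 3 libraries varied by 21.9%.

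Sftpd lies on the minus strand of chromosome 14 (chr14:41172214-41185149, GRCm38), with 8 exons and 374 residues in the counted transcript. Its counts were 30, 25 and 24 in the Crebl2 siRNA libraries and 140, 170 and 186 in the Luc siRNA libraries. No library of one group reached into the range of the other, and the gap between them was 4.57-fold. Sftpd averaged 0.947 ± 0.112 CPM with Crebl2 siRNA and 5.95 ± 0.984 CPM with Luc siRNA (SD, n = 3 each), a log2 fold change of -2.65 (SE 0.183), or 6.26-fold lower. The summed counts stood at 15.9% of the Luc siRNA level (95% exact interval 12.4% to 20.3%), and the fall ranked 7 among all tested genes. Within the Luc siRNA group Sftpd was lowest in replicate 1, the library in which Npr3 and Colec10 were highest.

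Colec10 lies on the plus strand of chromosome 15 (chr15:54410774-54466358, GRCm38), with 6 exons and 277 residues. Its counts were 12, 17 and 12 in the Crebl2 siRNA libraries and 75, 63 and 45 in the Luc siRNA libraries. The groups did not overlap, with a gap of 2.71-fold, but the Luc siRNA libraries spread more for Colec10 than for the other 4 genes, with a coefficient of variation of 22.4% against 12.8% from counting alone. Colec10 averaged 0.492 ± 0.105 CPM with Crebl2 siRNA and 2.18 ± 0.489 CPM with Luc siRNA (SD, n = 3 each), a log2 fold change of -2.14 (SE 0.261), or 4.42-fold lower. The summed counts stood at 22.4% of the Luc siRNA level (95% exact interval 15.6% to 31.6%). Its fall ranked 16 by size and 28 by the gap between the groups.

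Pla1a and Cpq were chosen for even falls at higher counts. Pla1a lies on the minus strand of chromosome 16 (chr16:38396117-38433145, GRCm38), with 11 exons and 456 residues, and had 1547, 1616 and 1493 counts in the Crebl2 siRNA libraries and 3635, 3868 and 3589 in the Luc siRNA libraries. The libraries of each group lay close together, with coefficients of variation of 3.98% with Crebl2 siRNA and 4.21% with Luc siRNA. The mean was 55.8 ± 2.22 CPM with Crebl2 siRNA and 133 ± 5.59 CPM with Luc siRNA (SD, n = 3 each), a log2 fold change of -1.25 (SE 0.0558), or 2.38-fold lower. The summed counts stood at 42.0% of the Luc siRNA level (95% exact interval 40.6% to 43.5%), and the gap between the groups was 2.19-fold.

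Cpq lies on the plus strand of chromosome 15 (chr15:33083129-33594552, GRCm38), with 8 exons in the counted transcript and 470 residues. Its counts were 3762, 3514 and 3872 in the Crebl2 siRNA libraries and 7958, 7672 and 7797 in the Luc siRNA libraries. The groups were again apart in every library, by 1.97-fold at the nearest. Cpq averaged 134 ± 6.58 CPM with Crebl2 siRNA and 281 ± 6.51 CPM with Luc siRNA (SD, n = 3 each), a log2 fold change of -1.07 (SE 0.0514), or 2.10-fold lower. The summed counts stood at 47.6% of the Luc siRNA level (95% exact interval 46.6% to 48.7%). By size the falls of Pla1a and Cpq ranked 120 and 181, and by the gap between groups they ranked 45 and 80.

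**Figure D1:**
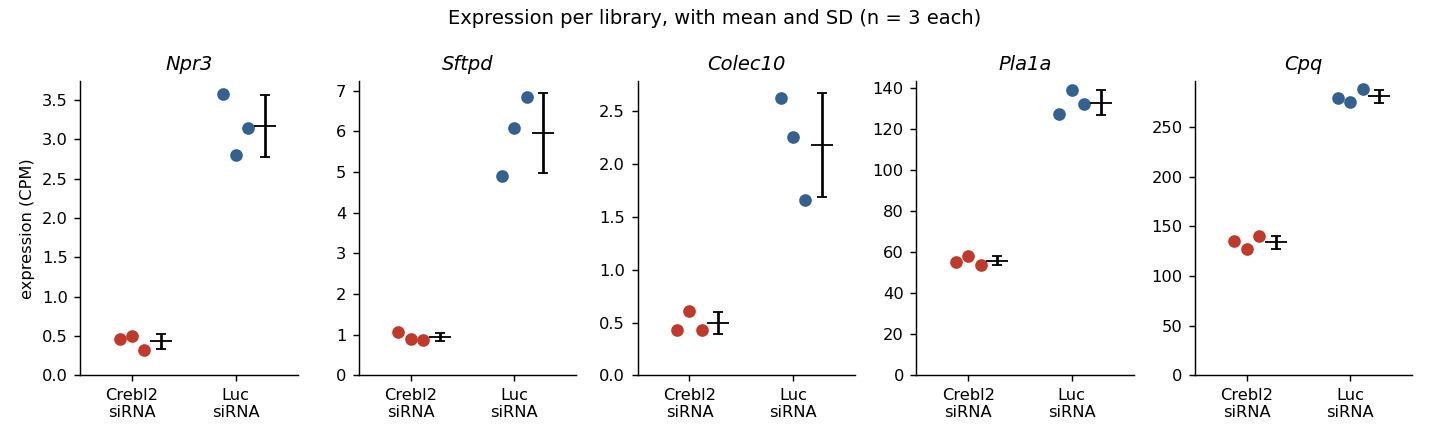
Expression of the 5 genes in CPM (vertical axis, from 0) in each of the 3 Crebl2 siRNA libraries (left of each panel) and 3 Luc siRNA libraries (right), with the mean and SD beside the points. In all 5 panels every Crebl2 siRNA library lies below every Luc siRNA library, by 5.54-fold at the nearest for Npr3 and 1.97-fold for Cpq.

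All 5 genes had groups that do not overlap, as did 24.9% of all tested genes in this direction, and nothing is read from that since the genes were picked on it. The falls of the 5 genes were spread across the lower tail of all tested genes, whose median log2 fold change was 0.00519. Without Crebl2 siRNA replicate 2 the log2 fold changes were -2.98 for Npr3, -2.60 for Sftpd, -2.32 for Colec10, -1.28 for Pla1a and -1.03 for Cpq.

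**Figure D2:**
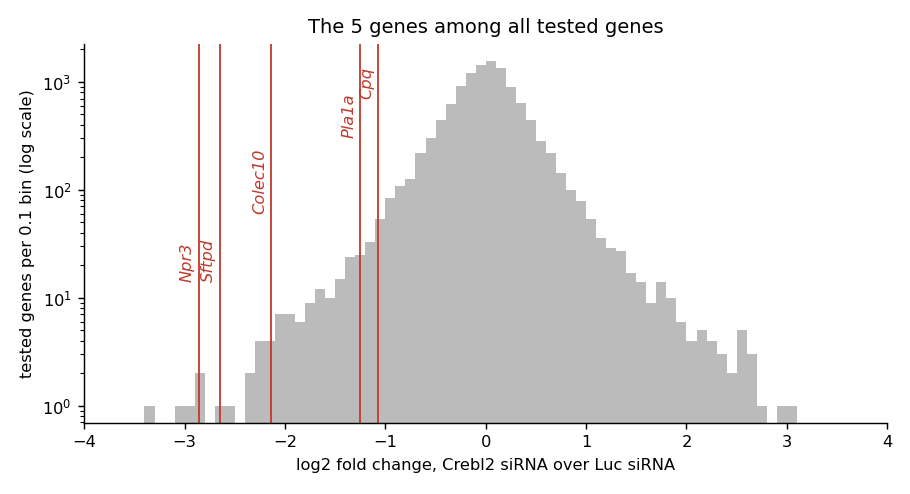
Histogram of log2 fold changes, Crebl2 siRNA over Luc siRNA (horizontal axis), of the 11616 tested genes, counted per bin on a log vertical axis, with a line for each of the 5 genes. Npr3 at -2.86, Sftpd at -2.65 and Colec10 at -2.14 stand where few genes do, and Pla1a at -1.25 and Cpq at -1.07 stand on the shoulder of the distribution.

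Levels were compared between genes per kilobase of the counted transcript. With Luc siRNA the order was Cpq (143 to 150 CPM per kilobase), Pla1a (64.6 to 70.2), Sftpd (3.85 to 5.38), then Colec10 (0.362 to 0.573) and Npr3 (0.406 to 0.519), whose ranges overlap. With Crebl2 siRNA the first 3 genes kept that order, with 65.8 to 72.6 CPM per kilobase for Cpq, 27.3 to 29.5 for Pla1a and 0.679 to 0.842 for Sftpd. Colec10 (0.0937 to 0.133 CPM per kilobase) was then above Npr3 (0.0471 to 0.0732) in every library. These lengths take the deposited rows, 1 per gene, as the whole set of transcripts that reads were counted on. GENCODE M21 lists 5 transcripts for Npr3, 2 for Sftpd, 1 for Colec10, 2 for Pla1a and 7 for Cpq, and reads were apparently not counted where transcripts overlap. Over the bases that no other GENCODE transcript covers, a length chosen after seeing the data, the Luc siRNA means were 3050 CPM per kilobase for Cpq, 83.3 for Pla1a, 9.79 for Sftpd, 1.34 for Npr3 and 0.476 for Colec10. The order of the last pair therefore depends on which transcripts were used for counting.

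**Figure D3:**
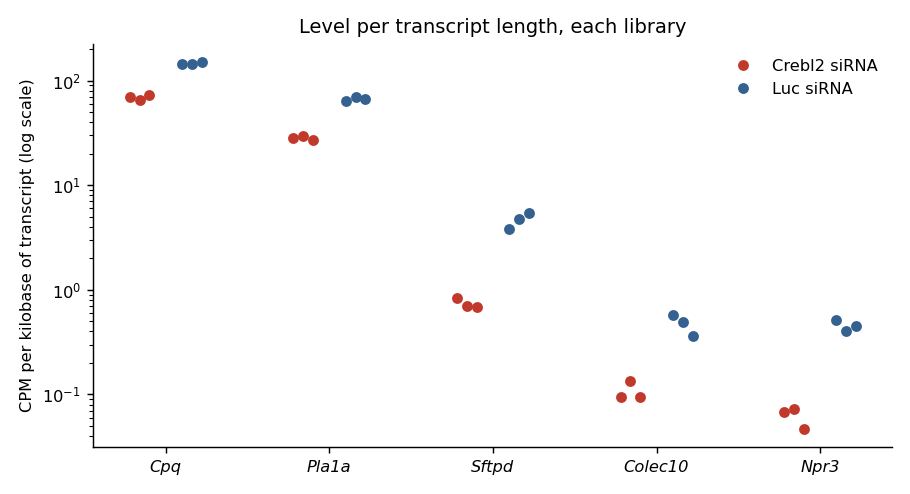
Level of each gene in CPM per kilobase of the counted transcript (log axis) in each library, Crebl2 siRNA left of Luc siRNA, with genes ordered by their mean over the Luc siRNA libraries. Cpq and Pla1a lie above 27 in every library and Colec10 and Npr3 below 0.6.

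None of the sequence features described next was found in all 5 genes. In the proteins translated from the counted transcripts, 4 of 5 carried a hydrophobic stretch near the start (a mean Kyte-Doolittle hydropathy of at least 2 over 11 residues within residues 1 to 35), as secreted and many membrane proteins do. Npr3 reached 2.53, Sftpd 2.70, Colec10 2.39 and Cpq 2.81, and Pla1a reached 1.44, below the limit, although the enzyme is known to be secreted. The measure is crude and no call of a signal peptide, and it is tied to the choice of these genes as secreted or receptor genes. Npr3 was the one of the 5 with a later stretch of 19 residues at a mean hydropathy above 2 (2.21, from residue 478), where a receptor that crosses the membrane once is anchored. Of the 1622 tested genes with such a hydrophobic start, 30.7% were called lower and 17.6% higher at an adjusted p under 0.05 (edgeR), with a median log2 fold change of -0.0793, and 4.75% were called lower by at least 2-fold. Of the 8261 tested genes without it, 20.4% were called lower and 19.6% higher, with a median of 0.00796, and 1.33% were called lower by at least 2-fold. The difference between these classes was not tested.

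The collectins resemble each other along their length. Sftpd has a run of 59 glycine-X-Y triplets from residue 45, the collagen-like stalk, and Colec10 a run of 24 from residue 47, as long as that of Colec11. Sftpd and Colec10 were identical at 97 of 262 aligned residues (37.0%), Colec10 and Colec11 at 46.0%, and Sftpd and Mbl2 at 47.7%. Pla1a holds the pattern G-X-S-X-G at residue 164, the setting of the active serine in lipases, a pattern that also occurs by its letters in Npr3, Sftpd and Cpq, which are no lipases.

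The 3′ UTRs of Npr3 and Pla1a hold a 7-base word, GAAATGT, which an earlier analysis of these same libraries had drawn attention to. The matches are shown with 11 bases on either side, 5′ to 3′ on the transcript, with the word in capitals, and come from the GENCODE M21 transcripts on GRCm38.
Npr3, UTR base 351: ttttctgaaatGAAATGTttcgtagctag
Npr3, UTR base 740: ttttggtattaGAAATGTgtctatttttt
Npr3, UTR base 5183: gtgtttggataGAAATGTgcgcgtgttct
Pla1a, UTR base 285: aggatttaataGAAATGTacgcagagaaa
Npr3 has 3 matches in a UTR of 5281 bases and Pla1a has 1 in a UTR of 334 bases. The word was absent from the UTRs of Sftpd (122 bases), Colec10 (3749 bases), Cpq (295 bases) and Crebl2 (2981 bases). It stood in 29.2% of 2175 genes called lower, 11.9% of 1885 called higher and 16.6% of 5752 called neither way. These groups differ in UTR length, with medians of 1389, 992 and 997 bases in that order. In UTRs over 2000 bases, as in Npr3, the shares were 52.3% for lower, 30.5% for higher and 37.5% for neither. Up to 500 bases, as in Pla1a, they were 5.79%, 2.58% and 3.52%. Among the 185 genes called lower by at least 2-fold, with a median UTR of 865 bases, the share over all lengths was 23.8%. The word was taken up because of these libraries, so its shares describe them and are no independent evidence. The siRNA sequences are not given in the sources used here, and the part of this word in the falls of Npr3 and Pla1a was not tested.

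A RefSeq promoter window, 250 bases before to 50 after the start, was at hand for Npr3 alone. It was searched on both strands for TGACGTCA, the full site of CREB proteins, for TGACG within it, for TGANTCA, a site of AP-1 proteins, and for GGAATG, a site of TEAD proteins. TGACG was the one found, shown here in capitals with the bases around it on the strand of the gene (minus strand, GRCm38.p6, chr15:11907389-11907449).
Npr3, upstream of the RefSeq start: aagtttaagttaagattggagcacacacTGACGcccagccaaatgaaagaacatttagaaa
Among 32851 promoter windows 20.8% hold TGACG, 1.79% TGACGTCA, 7.81% TGANTCA and 14.7% GGAATG. The RefSeq start is 1732 bases upstream of the start of the counted Npr3 transcript.

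The other genes of each protein's pathway or family were counted from lists, beside a background of 20.1% of tested genes called lower and 18.8% called higher. With library size alone as the scaling, 58.8% of all calls were higher, against 48.3% with TMM scaling. In the natriuretic peptide system 7 of 15 listed genes were tested, of which 3 were lower, 1 was higher and 3 did not pass. The guanylyl cyclase receptors were lower by far less than Npr3. Npr1, the receptor of atrial and B-type peptide, had 28.9 ± 3.34 CPM with Crebl2 siRNA and 36.9 ± 0.51 CPM with Luc siRNA, a log2 fold change of -0.35 (adjusted p 0.00166, edgeR). Npr2, the receptor of C-type peptide, had 16.7 ± 2.42 CPM with Crebl2 siRNA and 20.7 ± 2.04 CPM with Luc siRNA, a log2 fold change of -0.31 (adjusted p 0.0242). That call was lost with library size alone as the scaling (adjusted p 0.056) and without Crebl2 siRNA replicate 2 (0.0934), Crebl2 siRNA replicate 3 (0.0894) or Luc siRNA replicate 2 (0.142).

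Of the ligands, Nppb (B-type natriuretic peptide) had 33, 29 and 31 counts in the Crebl2 siRNA libraries and 36, 56 and 48 in the Luc siRNA libraries. The groups stood apart by few counts, and the log2 fold change of -0.59 (adjusted p 0.0468, edgeR) was lost under library size scaling (0.0676), DESeq2 (0.117), limma-voom (0.0672), the replicate block (0.0701) and without any 1 library other than Luc siRNA replicate 1. Nppa (the atrial peptide) had 3 counts in each Crebl2 siRNA library and 4 to 7 in the Luc siRNA libraries, too few to test, and Nppc and the protease Corin had 0. Downstream of the cyclases, Prkg2, a cGMP-dependent kinase, was higher, with 23, 21 and 22 counts in the Crebl2 siRNA libraries and 13, 10 and 9 in the Luc siRNA libraries. Its log2 fold change of 1.04 had an adjusted p of 0.0115 with edgeR, of 0.0584 with DESeq2 and of 0.0527 without Luc siRNA replicate 3. The G protein subunits Gnai2 (-0.13) and Gnai3 (0.03), of the inhibitory kind that Npr3 couples to, and the peptide-degrading enzyme Ide (0.01) did not pass the test. Gnai1, Ostn, Furin, Mme and Prkg1 had too few counts to test. Few bases belong to Furin (281 in its most counted transcript) and Corin (362 in all) and to no other deposited transcript. Their few or absent counts therefore need not mean low expression.

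Among the other collectins and the lectin pathway 5 of 13 listed genes were tested, and all 5 were lower. This list, like the others, was chosen with earlier results of these data known, so its counts and median are a description only. The median log2 fold change of the 5 was -1.08, against 0.00519 over all tested genes, and each of the 5 passed under all 14 alternative settings. Masp1 is a protease carried by some collectins. It had 63, 47 and 28 counts in the Crebl2 siRNA libraries and 93, 123 and 76 in the Luc siRNA libraries. Its log2 fold change was -1.08 (adjusted p 0.00165, edgeR). C2, which the MASP proteases cut, had 141, 124 and 114 counts in the Crebl2 siRNA libraries and 294, 285 and 240 in the Luc siRNA libraries, a log2 fold change of -1.11 (adjusted p 1.47e-06). C3, the component on which the complement pathways meet, had 423 ± 9.13 CPM with Crebl2 siRNA and 1050 ± 101 CPM with Luc siRNA, a log2 fold change of -1.31 (adjusted p 2.27e-10). C4b was also lower, at 7.72 ± 0.907 CPM with Crebl2 siRNA and 11.9 ± 0.93 CPM with Luc siRNA (-0.62, adjusted p 0.000226). Colec12, a membrane-bound collectin and scavenger receptor, had 43.8 ± 1.32 CPM with Crebl2 siRNA and 64.5 ± 2.52 CPM with Luc siRNA (-0.56, adjusted p 1.22e-06).

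The closest relative of Colec10, its partner Colec11, had 10, 8 and 6 counts in the Crebl2 siRNA libraries and 7, 6 and 7 in the Luc siRNA libraries. These overlap and were too few to test. The mannose-binding lectins and ficolins had few or no counts, with at most 2 of Mbl1 or Mbl2 and at most 4 of Fcna in any library. Fcnb was at 0. Masp2 and the inhibitor Serping1 had too few counts to test, and Sftpa1 was at 0. The most counted transcript of Masp2 has 675 bases of its own and that of Serping1 346, which limits what could be counted. The other markers of alveolar type II cells, where Sftpd is best known, were low in both groups. Their sum was 3.03 to 4.40 CPM with Crebl2 siRNA and 3.30 to 4.10 CPM with Luc siRNA, 7 of 8 had at least 1 count, Sftpa1 was at 0, and Sftpb and Sftpc had at most 2 counts in any library. Of those that could be tested, Lamp3 (a log2 fold change of -0.05), Slc34a2 (0.27) and Etv5 (-0.27) did not pass (edgeR), and 0 of the 3 had an unadjusted p under 0.05.

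In the lipase family and phosphatidylserine metabolism 10 of 19 listed genes were tested, of which 1 was lower, 2 were higher and 7 did not pass, with a median log2 fold change of 0.03. Lpl, lipoprotein lipase, went the other way from its relative Pla1a, with 1090 ± 64.1 CPM with Crebl2 siRNA and 641 ± 17.1 CPM with Luc siRNA, a log2 fold change of 0.76 (adjusted p 9.77e-09, edgeR). Lypla1, a lysophospholipase, was higher by 0.31 (adjusted p 0.00508). Lipg, endothelial lipase, had 34, 46 and 26 counts in the Crebl2 siRNA libraries and 61, 59 and 45 in the Luc siRNA libraries, and its log2 fold change of -0.63 (adjusted p 0.0332) was lost under library size scaling (0.0506), DESeq2 (0.0699) and without Luc siRNA replicate 1 or 2 or Crebl2 siRNA replicate 1 or 3 (0.0672 to 0.126). The enzymes that make the substrate of Pla1a, Ptdss1 (-0.07) and Ptdss2 (0.11), did not pass, nor did Pisd (-0.24), which turns phosphatidylserine into phosphatidylethanolamine. The same holds for Abhd16a (0.04), which makes lysophosphatidylserine, for Abhd12 (0.08), which breaks it down, for Lpcat3 (0.03) and for hepatic lipase, Lipc (-0.41). The lysophosphatidylserine receptors Gpr34, P2ry10 and Gpr174 were at 0, where the deposited transcripts have 194 bases of their own for Gpr34, 219 for P2ry10 and 286 for Gpr174. Liph, Lipi and Pnliprp1 were also at 0, and Pnlip, Pnliprp2 and Lypla2 were not tested. The most counted Lypla2 transcript has 109 bases of its own.

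In the M28 family of Cpq 6 of 10 listed genes were tested, with 3 higher, 0 lower and 3 not passing, and a median log2 fold change of 0.35. No gene of the list was lower by an unadjusted p under 0.05 in edgeR (0 of 6), DESeq2 and limma-voom also called 0 lower, and without Crebl2 siRNA replicate 3 Qpct was called lower (adjusted p 0.0331). Tfrc, the transferrin receptor, which has the shape of the family but no peptidase activity, had 421 ± 43.6 CPM with Crebl2 siRNA and 285 ± 15.8 CPM with Luc siRNA (0.56, adjusted p 4.47e-06). Qpctl, a Golgi glutaminyl cyclase, had 31.4 ± 2.65 CPM with Crebl2 siRNA and 19 ± 0.668 CPM with Luc siRNA (0.72, adjusted p 1.64e-06). Ermp1, of the endoplasmic reticulum, was higher by 0.24 (adjusted p 0.000786). Naaladl1 (0.46), Naaladl2 (-0.39) and Qpct (-0.35) did not pass, and Folh1, Naalad2, Tfr2 and Ncln were not tested. The most counted transcript of Tfr2 has 183 bases of its own and that of Ncln 277, so few reads could be counted on them.

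Among other extracellular and lysosomal carboxypeptidases and dipeptidases 9 of 16 were tested, with 3 lower, 3 higher and 3 not passing, and a median log2 fold change of 0.00. Cpe, the prohormone carboxypeptidase, had 2190 ± 51.7 CPM with Crebl2 siRNA and 2770 ± 24.9 CPM with Luc siRNA (-0.34, adjusted p 1.65e-05, edgeR). Scpep1 (-0.21, adjusted p 0.00187) and the lysosomal Dpp7 (-0.44, adjusted p 0.000243) were also lower. The membrane-bound Cpd (0.44, adjusted p 3.62e-05) and Cpm (0.36, adjusted p 8.92e-06) and the plasma enzyme Cpn1 (0.18, adjusted p 0.00949) were higher. Prcp (0.00), Pepd (-0.10) and Tpp1 (0.05) did not pass, and Cpb2, Cpz, Ctsa, Dpp4, Cndp1, Cndp2 and Dpep1 were not tested. The most counted Cndp2 transcript has 132 bases of its own.

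**Figure D4:**
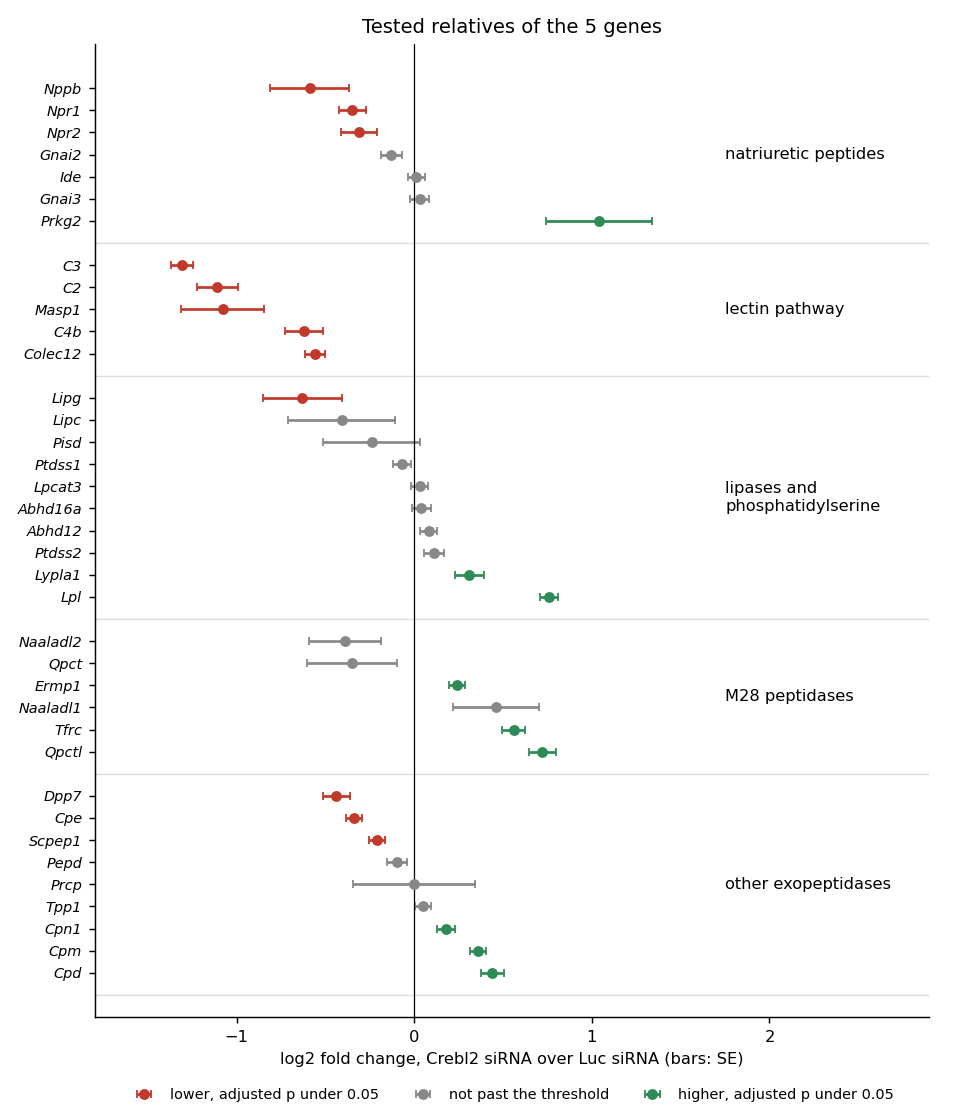
Log2 fold changes, Crebl2 siRNA over Luc siRNA (horizontal axis, bars are SE), of the tested genes in the 5 lists, coloured by the edgeR call at an adjusted p under 0.05. All 5 tested genes of the collectin and lectin pathway list lie below 0, and the other lists hold genes on both sides. The lists were chosen with earlier results of these data known.

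Profiles over the 6 libraries were compared by the root mean square difference of log2 CPM, each gene centred on its own mean, with a pseudocount of 0.1, across 8545 genes. The libraries share these groups, so any gene with a like fall scores as alike, and the values are a description. Npr3 and Sftpd were each other's nearest gene, at 0.263, and Pla1a and Cpq differed by 0.125. Npr3 was next nearest to Upk3b (0.37) and Mmp19 (0.402), and Sftpd to Msln (0.282) and Mmp19 (0.293). Upk3b had 2.59 ± 0.407 CPM with Crebl2 siRNA and 11 ± 0.79 CPM with Luc siRNA, and Msln had 16.3 ± 0.727 CPM with Crebl2 siRNA and 67.7 ± 10.0 CPM with Luc siRNA (SD, n = 3 each).

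Msln (mesothelin) and Upk3b also stand in the list of mesothelial markers. Of its 7 genes 5 had counts and Wt1 and Gpm6a were at 0, and the sum was 140 to 168 CPM with Crebl2 siRNA and 175 to 200 CPM with Luc siRNA. Krt19 of that list was higher, at a log2 fold change of 0.30, where Msln (-2.06) and Upk3b (-2.08) were lower. The fibroblast list was also lower in sum, at 119 to 131 CPM with Crebl2 siRNA and 176 to 182 CPM with Luc siRNA, nearly all of it Dcn (-0.55), with Col3a1 at 0 and 7 of 8 genes with counts. The macrophage list summed to 1.41 to 1.83 CPM with Crebl2 siRNA and 1.96 to 2.40 CPM with Luc siRNA, with Cd163, Ptprc and Vsig4 at 0 and 5 of 8 with counts. Of its 2 tested genes Lyz2 was lower (-0.84, with 0.815 CPM under Crebl2 siRNA and 1.47 CPM under Luc siRNA). The other, Cd68 (0.12), did not pass. The lists for hepatic stellate cells (59.8 to 66.5 CPM with Crebl2 siRNA and 45.2 to 54.7 CPM with Luc siRNA, 5 of 8 with counts, Reln, Pdgfrb and Hgf at 0) and endothelial cells (33.3 to 37.4 CPM with Crebl2 siRNA and 19.8 to 23.1 CPM with Luc siRNA, 7 of 8 with counts, Tek at 0) were higher in sum, each through 1 gene, Des and Vwf. Some genes at 0 had few bases that no other deposited transcript covers: 48 for Tek, 126 for Pdgfrb, 127 for Cd163 and 429 for Ptprc. A 0 there does not show that the gene is silent. Reln (814), Wt1 (918), Hgf (1056), Vsig4 (1432), Gpm6a (3215) and Col3a1 (5423) had more. In bulk RNA, fewer cells of a type and less RNA per cell cannot be told apart. The part of the marker genes in the falls of the 5 was not tested.

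The nearest profile to Colec10 was Ifi27l2b (0.0979), one of a family of related genes whose sharing of reads was not tested, then Aldh1l2 (0.145), an enzyme of mitochondrial folate metabolism, and Upk3b (0.207). Aldh1l2 had 1.76 ± 0.222 CPM with Crebl2 siRNA and 5.87 ± 1.12 CPM with Luc siRNA. Nearest to Pla1a were Ankrd1 (0.0548), a nuclear ankyrin repeat protein, C3 (0.0627) and P4ha1 (0.0649), a collagen prolyl hydroxylase. Ankrd1 had 173 ± 4.16 CPM with Crebl2 siRNA and 383 ± 13.1 CPM with Luc siRNA. Nearest to Cpq were Syt13 (0.0442), Smim14 (0.0527) and Arhgef26 (0.0614), and Smim14 had 17.6 ± 0.89 CPM with Crebl2 siRNA and 37.6 ± 1.88 CPM with Luc siRNA.

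**Figure D5:**
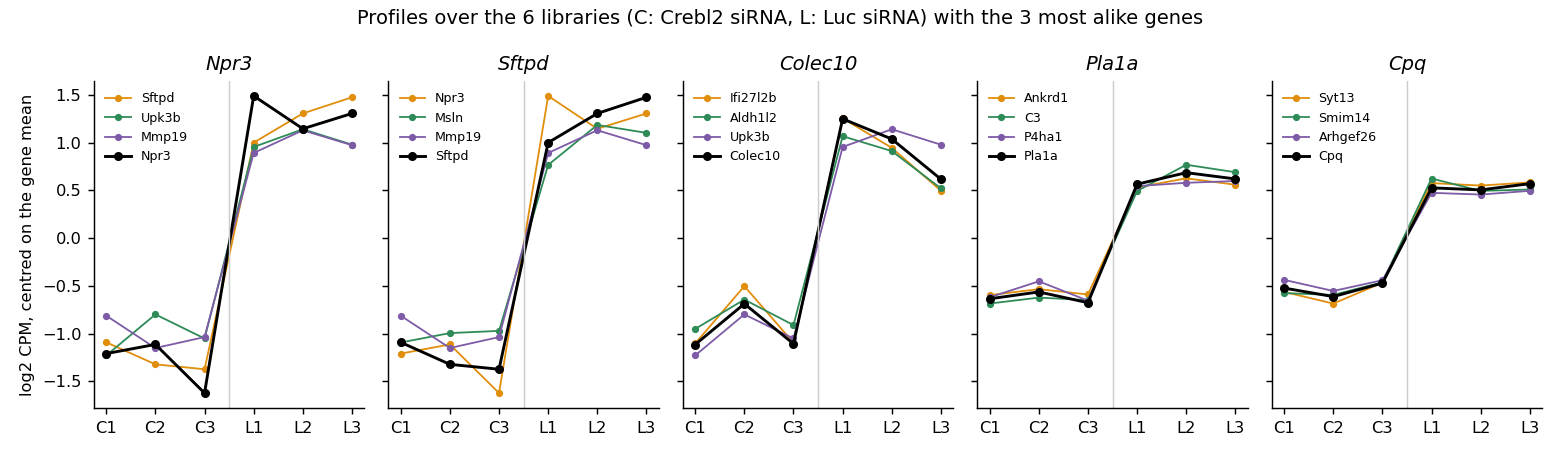
Log2 CPM centred on each gene's mean (vertical axis) over the 3 Crebl2 siRNA libraries (C1 to C3) and the 3 Luc siRNA libraries (L1 to L3), for each of the 5 genes in black and its 3 most alike genes in colour; points are libraries and lines only join the points of a gene. Npr3 and Sftpd differ most from their neighbours in single libraries, and the lines of Pla1a and Cpq nearly coincide with theirs.

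Of the 5 genes, Npr3, Colec10 and Cpq lie on chromosome 15, far apart from each other. Of 492 tested genes on that chromosome 24.8% were lower and 20.1% higher, with a median log2 fold change of -0.0116, and over all chromosomes 20.1% were lower. The tested genes next to the 5 had smaller changes, and nothing is read from that since the 5 were picked for their falls. Sub1, 91.3 kb from Npr3, changed by -0.55 and Tars, on the other side, by -0.18 (adjusted p 7.22e-05 and 0.00523, edgeR). Mat1a, 79.8 kb from Sftpd, changed by -0.59 (adjusted p 0.0363, edgeR), and Gm8113, 2740 kb away on the other side (-0.57), did not pass. Around Colec10, Tnfrsf11b (-0.22, adjusted p 0.00246) and Mal2 (-0.45, adjusted p 0.000629) were lower. Adprh, 19.6 kb from Pla1a, was higher by 0.21 (adjusted p 0.00563) and Cox17 (0.09) did not pass. Sdc2 (-0.32, adjusted p 0.000167, edgeR) was lower beside Cpq, and Mtdh, 1000 kb from Cpq (-0.07), did not pass. Among genes with a deposited row, Gm24476, on the strand opposite to Cpq, was the one that overlaps any of the 5, and it had 0 counts. The search used the spans of the deposited transcripts, and GENCODE genes without a deposited row were not searched.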

How the data were processed

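The authors deposited raw counts of reads per Ensembl transcript for each library. The submitters' processing notes name Trim Galore, TopHat and HTSeq and the builds mm9 and GRCm38, and the counting settings and annotation are not given in the sources used here. Libraries came from a stranded total RNA kit, per the labels' protocols. Here the deposited counts of 58611 rows were summed per gene with GENCODE M21, which matched 58264 rows, and the 347 others (at most 0.0497% of a library) were kept as unnamed features. Rows without an exonic base of their own held 0.0235% of counts, so reads shared by transcripts were apparently not counted.

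Genes were tested over the 3 Crebl2 siRNA and 3 Luc siRNA libraries with edgeR 4.0.16 under R 4.3.3 (two-sided quasi-likelihood test, TMM scaling, filterByExpr, Benjamini-Hochberg adjustment over all 11616 tested genes, threshold 0.05). The procedure was first tested on simulated data. Alternatives used limma 3.58.1 and DESeq2 1.42.0. CPM were computed from the counts with TMM-scaled totals, and intervals of count ratios are exact binomial (95%), which hold for counting error alone, as PCR copies cannot be told from separate molecules. Proteins were translated from GENCODE M21 coding sequences with Biopython 1.88 and not taken from RefSeq as planned. UTRs came from the same models, and the promoter from RefSeq.

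The 5 genes and all lists were chosen with earlier results of these data known. Named are the 5 genes, Crebl2, the listed relatives, the markers the text turns on, the 3 genes with the nearest profile to each (mean of at least 1 CPM) and the nearest tested genes on either side.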

Additional observations from a re-analysis of the deposited data

How the results depend on the processing

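The 5 genes kept their direction under all 14 alternative settings. The log2 fold change ranged over -2.98 to -2.70 for Npr3, -2.77 to -2.53 for Sftpd, -2.32 to -1.99 for Colec10, -1.28 to -1.20 for Pla1a and -1.10 to -1.02 for Cpq. Over the same settings 1920 to 2424 genes were called lower and 1694 to 2741 higher, with the highest count of higher calls under library size alone. The main fit did not pair libraries by replicate number. In deviations from the group means, same-numbered libraries had correlations of -0.173, -0.0612 and -0.107, and differently numbered ones of -0.0271 to 0.123. Such deviations sum to 0 within a group, so these values cannot show whether libraries were prepared in pairs. A fit with the replicate block called 2101 genes lower and 1882 higher. Counts of called relatives moved in 3 lists. In the natriuretic peptide system 1 gene was lower under library size alone, 2 under DESeq2, limma-voom and the replicate block, 4 with no filter and 1 to 3 with a library left out, against 3 in the report, and 0 were higher under DESeq2 and with a mean CPM of at least 1, with 0 to 1 where a library was left out. In the lipase list 0 were lower under library size alone and under DESeq2 and 0 to 1 with a library left out, and 4 were higher under library size alone. In the M28 family 0 to 1 was lower with a library left out. With a mean CPM of at least 1, Prkg2 was filtered out, so the 0 higher there is no lost call. The lipase genes called higher only under library size alone or with a library left out were Ptdss2 and Abhd12. Under library size alone their adjusted p were 0.035 and 0.0365 (edgeR). Apart from that filter, the cause of these moves was not tested. Depth limits Npr3 and Colec10 most, whose Crebl2 siRNA libraries held 9 to 17 counts.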
